A study of Rattus norvegicus with 23 samples.

Results

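The genes described here encode the enzymes that build fatty acids and cholesterol, with the proteins that control their transcription, in the lungs of elderly rats that had inhaled titanium dioxide. The set was a named list of 38 genes, and all 38 were measured among the 23056 genes of the array. By role they comprised 6 desaturases, 7 fatty acid synthesis genes, 5 elongases, 5 regulators and 15 cholesterol synthesis genes. Male F344 rats, aged 19 months, breathed either a nano-aerosol of TiO2 (P25) at 10 mg/m3 or filtered air, through nose-only towers, during 4 weeks of 5 exposure days, each of 6 h. They were killed immediately (D0) or 28 days (D28) after the exposure ended. There were 6 controls on each day, 5 TiO2-exposed animals at D0 and 6 at D28. A sixth exposed rat of D0 was not analysed here. RNA of the accessory lung lobe of each rat was hybridised to a single-colour Agilent array, so each value is that of 1 rat. Since whole-lobe RNA was measured, fewer cells of a type and less RNA per cell cannot be told apart.

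Fatty acids are built from acetyl-CoA, which acetyl-CoA carboxylase and fatty acid synthase turn into saturated chains. Elongases then lengthen these chains and desaturases insert double bonds. Cholesterol is built from the same precursor through the mevalonate pathway, squalene and lanosterol. Both pathways are governed by the transcription factors SREBP-1 and SREBP-2, encoded by Srebf1 and Srebf2, which are escorted by SCAP and held in the endoplasmic reticulum by the INSIG proteins when sterols are plentiful. SREBP-1 acts mostly on fatty acid genes and SREBP-2 mostly on cholesterol genes. In the lung, type II pneumocytes use this machinery to make the lipids of surfactant, and alveolar macrophages take those lipids up again.

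All levels below are log2 of the quantile-normalised signal, and a gene was called a differentially expressed gene (DEG) when its adjusted p (limma, Benjamini-Hochberg over all 23056 genes) was under 0.05 and its fold change (FC) was at least 1.5. Levels are compared between rats, not between probes. Of the 38 genes, 35 were well above background on all 23 arrays by a probe of the gene, the exceptions being Thrsp, Elovl3 and Elovl7. No spot was saturated. The arrays lay on 5 slides, on 4 of which exposed and control rats were hybridised together. A pair of rats stood apart within their groups. Exposed D28 rat 4 lay above every other rat of its group for 23 of the 38 genes and below all of them for 5, against 19.6% and 26.2% of all genes. Control D0 rat 6 lay below every other rat of its group for 25 of the 38 genes and above for 1, against 22.7% and 20.6% of all genes. Calls that changed when either rat was left out are given beside the gene.

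On D0, 2 of the 38 genes were DEGs, with Scd under-expressed and Hmgcs1 over-expressed, where 1.78% of all genes were called. On D28 Dhcr7 was the only DEG of the set, where 0.755% of all genes were called. When the effect of exposure was averaged over both days, 4 genes of the set were DEGs, namely Scd, which was under-expressed, and Hmgcs1, Idi1 and Dhcr7, which were over-expressed. The share for all genes was then 1.87%. The average uses the same rats as the D0 and D28 comparisons and is not separate evidence. By the adjusted p alone, 3 genes of the set passed on D0 (2.85% of all genes), 2 on D28 (1.31%) and 10 in the average (6.54%). The 10 were Scd and Scd4, which fell, and Elovl1, Hmgcs1, Mvd, Idi1, Sqle, Lss, Msmo1 and Dhcr7, which rose. The other 28 genes did not pass on either day or in the average. Exposed and control rats did not overlap for Scd and Msmo1 on D0 (4.3% of all genes did not overlap) and for Idi1, Msmo1 and Dhcr7 on D28 (1.22%).

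**Figure D1:**
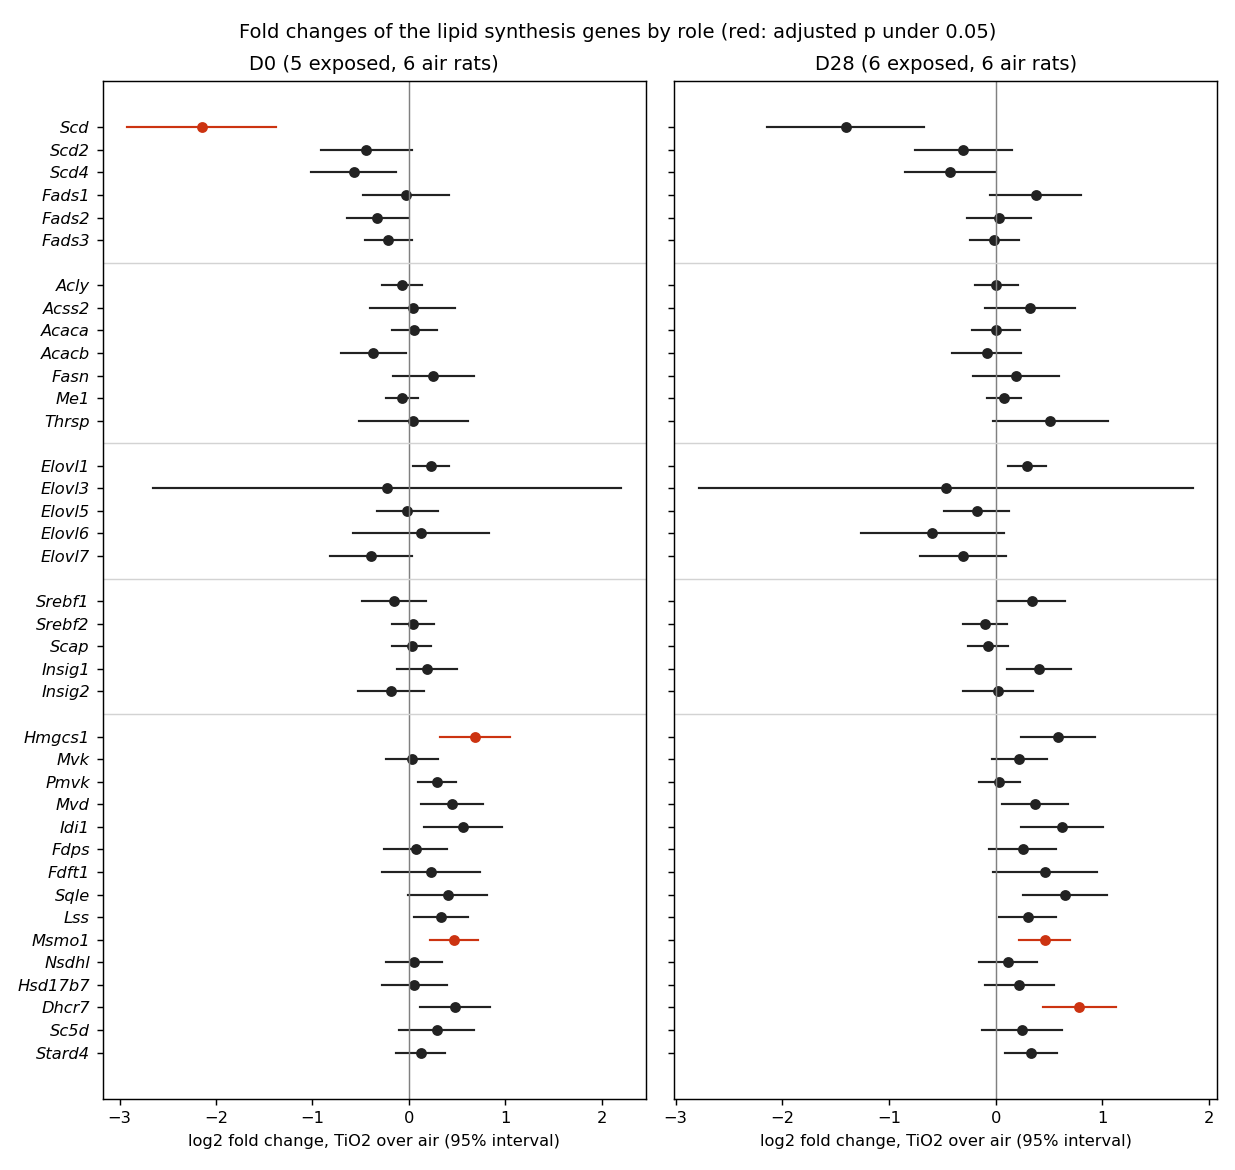
Log2 fold change of exposed against control rats for each of the 38 genes, on D0 and on D28, ordered by role, with 95% confidence intervals from limma (5 exposed and 6 control rats on D0, 6 and 6 on D28) and genes with an adjusted p under 0.05 in red. Scd has the most negative value on both days (-2.15 and -1.40), and the 15 cholesterol synthesis genes all lie to the right of 0.

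The desaturases held the largest difference of the set. Scd encodes stearoyl-CoA desaturase, which makes oleate and palmitoleate from saturated acyl chains. Its level on D0 was 11.78, 12.56, 12.82, 12.31 and 11.43 in the 5 exposed rats, and ran from 13.62 through a median of 14.40 to 14.80 in the 6 controls. Every exposed rat of D0 was below every control rat. The difference was -2.15 (SE 0.37, 95% interval -2.92 to -1.38), a 4.43-fold fall with a limma adjusted p of 0.0019, and it passed in all 23 fits that left out 1 rat. On D28 the controls ran from 13.06 through 14.15 to 14.59 and the exposed rats from 12.17 through 12.30 to 14.51. Of the exposed rats of D28, 5 lay between 12.17 and 12.37, under every control, while rat 4 stood at 14.51 among the controls. The D28 difference was -1.40 (95% interval -2.14 to -0.67, adjusted p = 0.052), and without exposed rat 4 it was -1.78 (adjusted p = 0.0015). Without control D28 rat 6, the lowest control of that day, it was -1.60 (adjusted p = 0.031). In the average over days Scd fell 3.43-fold (-1.78, SE 0.26, adjusted p = 0.000156).

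The rat genome carries several Scd genes side by side, and they are shown here because their probes responded to different extents. The array held 1 probe for Scd and a pair each for Scd2 and Scd4, all on chromosome 1 of rn4. The Scd probe lay at chr1:249458860-249458919 on the minus strand. Scd2 probes 1 and 2 lay at chr1:249369161-249369220 and chr1:249370837-249370896, and Scd4 probes 1 and 2 at chr1:249393320-249393379 and chr1:249403950-249404009, all 4 on the plus strand. The first 30 bases of each 60-base probe, 5′ to 3′, are as follows.
Scd: gccaaagtgcaagcctacctactcactgcc
Scd2 probe 1: atgtccggtcccagcagagatacaacctct
Scd2 probe 2: gggatcctcagcagaggagtatttaagtcc
Scd4 probe 1: gcaagtgtggcactaccaccattgtagact
Scd4 probe 2: ttcaccacgttcttcattgactgcatggct
Across the full 60 bases, the longest run that any pair of these probes shared was 8 bases, and the Scd probe shared at most 6 with any other. Whether a probe also binds the transcript of a closely related Scd gene was not tested, so the Scd4 values carry that uncertainty.

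Scd2 encodes a desaturase of the same reaction. Its gene level in the exposed rats of D0 was 11.71, 11.55, 11.99, 11.28 and 11.10, against 11.29 through 12.06 to 12.29 in controls. On D28 it ran from 10.95 through 11.19 to 12.30 in exposed rats and from 11.15 through 11.73 to 11.95 in controls. The groups overlapped on both days, and the differences of -0.44 (adjusted p = 0.493) and -0.30 (adjusted p = 0.693) did not pass. Without exposed D28 rat 4, Scd2 passed by the adjusted p in the average over days, under the fold limit. The pair of Scd2 probes gave similar values, with -0.39 and -0.49 on D0 and -0.32 and -0.29 on D28 for probes 1 and 2.

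Scd4 depended on the probe. Probe 1 was not well above background on any array, and the gene level, a mean of both probes, therefore holds only part of the difference of probe 2. With the gene level the differences were -0.57 on D0 (adjusted p = 0.20), -0.43 on D28 (adjusted p = 0.43) and -0.50 in the average (adjusted p = 0.042). The average passed in 5 of the 23 fits that left out 1 rat, and not without control D0 rat 6 (adjusted p = 0.058). Without exposed D28 rat 4 the gene level passed on both days and was a DEG on D28 (-0.68, adjusted p = 0.0019) and in the average (-0.63). Probe 2 read 10.38, 10.39, 10.95, 10.35 and 9.90 in the exposed rats of D0, all below the controls, which averaged 11.60 ± 0.40 (SD, n = 6). On D28 it read from 10.11 through 10.26 to 12.22 in exposed rats, with rat 4 the highest, and 11.48 ± 0.34 (SD, n = 6) in controls. When each probe was fitted on its own and adjusted over all probes, probe 2 differed by -1.21 on D0 (SE 0.31, adjusted p = 0.044), by -0.90 on D28 (adjusted p = 0.206) and by -1.06 in the average (adjusted p = 0.0043). Over the 23 rats, probe 2 of Scd4 followed the Scd probe with Pearson's r = 0.948 and Spearman's rho = 0.907, as a description of rats that share these groups.

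**Figure D2:**
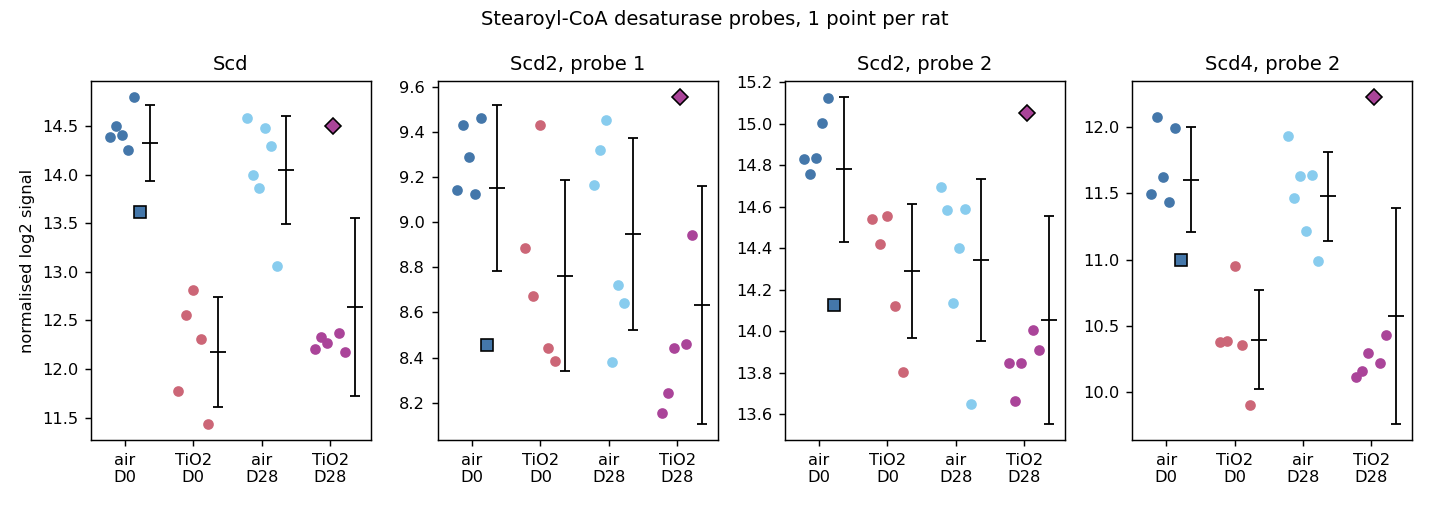
Log2 signal of the probes for Scd, Scd2 and Scd4 in each rat, by group, with the mean ± SD as a bar; the diamond is exposed D28 rat 4 and the square is control D0 rat 6. For Scd the exposed rats other than rat 4 of D28 lie at or below 12.82 and the controls at or above 13.06, while the Scd2 groups overlap.

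The other desaturases, Fads1, Fads2 and Fads3, act on polyunsaturated chains or are related to the enzymes that do. Their differences ran from -0.33 to -0.03 on D0 and from -0.01 to 0.37 on D28, with adjusted p-values between 0.392 and 0.996. None of the 3 passed in any comparison of exposed with control rats.

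None of the 7 fatty acid synthesis genes, which build the saturated chain on which Scd acts, passed on either day or in the average. Fasn, the fatty acid synthase itself, read 15.10, 14.97, 15.02, 14.15 and 14.12 in the exposed rats of D0, against 14.07 through 14.42 to 14.69 in controls. On D28 it ran from 14.09 through 14.42 to 15.10 in exposed rats and from 13.99 through 14.26 to 14.62 in controls. The groups overlapped on both days, and the 95% intervals of the difference were -0.16 to 0.68 on D0 (adjusted p = 0.780) and -0.21 to 0.59 on D28 (adjusted p = 0.817). Rats 1, 2 and 3 of the exposed D0 group thus lay above every control for Fasn while lying below every control for Scd.

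Acaca, the acetyl-CoA carboxylase that commits acetyl-CoA to fatty acids, read 8.17, 7.99, 8.42, 8.06 and 7.97 in the exposed rats of D0 and from 7.97 through 8.07 to 8.16 in controls. On D28 the exposed rats ran from 7.95 through 8.14 to 8.64 and the controls from 7.98 through 8.15 to 8.40. Its intervals, -0.17 to 0.29 on D0 and -0.22 to 0.22 on D28, were narrower than those of Fasn. The other 5 genes of this role were Acly and Acss2, which supply acetyl-CoA, the mitochondrial carboxylase Acacb, the NADPH source Me1, and the lipogenic regulator Thrsp. Their differences ran from -0.37 to 0.05 on D0 and from -0.08 to 0.51 on D28, and none passed (lowest adjusted p = 0.343).

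Among the elongases, Elovl1, which lengthens saturated chains to very long ones, rose in the average over days. Its level was 15.06, 14.93, 15.09, 15.05 and 14.76 in the exposed rats of D0 and ran from 14.61 through 14.73 to 14.94 in controls. Its D28 level ran from 14.80 through 14.96 to 15.15 in exposed and from 14.50 through 14.66 to 14.82 in control rats, so that the groups overlapped on both days. The difference was below the fold limit, at 0.23 on D0, 0.29 on D28 and 0.26 in the average (SE 0.06, adjusted p = 0.011). Elovl3, Elovl5, Elovl6 and Elovl7 ran from -0.39 to 0.13 on D0 and from -0.59 to -0.18 on D28 without passing (lowest adjusted p = 0.177 in the average). Elovl6, which extends palmitate to stearate, the substrate of Scd, differed by 0.13 on D0 and by -0.59 on D28 at the gene level. That level is a mean of a pair of probes. The dimmer probe, well above background on 1 D28 control and on no exposed D28 rat, differed by -1.05 on D28. The other probe, well above background on every array, differed by 0.16 on D0 and by -0.14 on D28.

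No regulator passed the test between exposed and control rats on either day. Srebf1 read 10.60, 10.23, 10.07, 10.36 and 9.90 in the exposed rats of D0 and from 9.92 through 10.41 to 10.75 in controls, a difference of -0.15. On D28 it ran from 9.70 through 10.04 to 10.35 in exposed rats and from 9.26 through 9.74 to 10.13 in controls, a difference of 0.34 (adjusted p = 0.396). Srebf2 read 12.25, 12.06, 12.51, 12.15 and 12.10 in the exposed rats of D0, against 12.03 through 12.16 to 12.33 in controls. On D28 Srebf2 ran from 12.07 through 12.29 to 12.54 in exposed and from 12.24 through 12.44 to 12.54 in control rats, and its differences were 0.05 and -0.10. These are mRNA levels, and the SREBP proteins are activated by cleavage, which the arrays do not measure.

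Insig1, itself a target of the SREBPs, read 12.73, 12.23, 12.11, 12.10 and 12.16 in the exposed rats of D0 and from 11.48 through 12.15 to 12.39 in controls. On D28 it ran from 11.86 through 12.11 to 12.23 in exposed and from 11.31 through 11.71 to 11.93 in control rats. Its differences were 0.19 on D0, 0.40 on D28 and 0.30 in the average (adjusted p = 0.106). Scap and Insig2 differed by 0.03 and -0.18 on D0 and by -0.07 and 0.02 on D28.

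The cholesterol synthesis genes lay higher in exposed rats. All 15 had a positive difference on both days, with a median of 0.30 on D0 and 0.33 on D28, where 49.9% and 48.9% of all genes had one and the medians of all genes were near 0. The 15 are not independent of each other, being targets of the same factors in the same rats. Of the 15, 2 passed on D0 (Hmgcs1 and Msmo1), 2 on D28 (Msmo1 and Dhcr7) and 7 in the average, all upward. Without control D0 rat 6, 12 of the 15 were higher on D0. The mean level of the 15 genes was 9.74 ± 0.19 in control and 10.05 ± 0.18 in exposed rats at D0, and at D28 it was 9.40 ± 0.15 and 9.78 ± 0.13 (SD over rats).

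At the entry of the pathway, Hmgcs1 joins acetyl-CoA and acetoacetyl-CoA into HMG-CoA. Its level on D0 was 12.88, 12.37, 12.60, 12.21 and 12.002 in exposed rats and ran from 11.28 through 11.75 to 12.11 in controls. On D28 it ran from 11.80 through 12.06 to 12.49 in exposed and from 11.24 through 11.41 to 12.06 in control rats. The groups overlapped by a few rats on both days. Hmgcs1 rose 1.61-fold on D0 (0.69, SE 0.17, limma adjusted p = 0.033), differed by 0.59 on D28 (adjusted p = 0.091) and rose by 0.64 in the average (SE 0.12, adjusted p = 0.0020). The D0 call was lost without control D0 rat 6 (0.60, adjusted p = 0.082) and also without any of control D0 rats 1, 2, 3 and 5 or exposed D0 rats 1, 2 and 3. Without control D28 rat 6 Hmgcs1 passed on D28 (0.70, adjusted p = 0.036).

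Mvd decarboxylates mevalonate diphosphate. It read 10.16, 9.99, 10.43, 9.98 and 9.90 in the exposed rats of D0 and from 9.31 through 9.67 to 9.91 in controls, and on D28 from 9.75 through 9.86 to 10.74 in exposed and from 9.35 through 9.70 to 9.78 in control rats. Idi1, the isomerase that makes the second isoprenoid unit, read 11.57, 11.30, 11.67, 11.02 and 11.09 in the exposed rats of D0 and from 10.12 through 10.86 to 11.07 in controls. On D28 Idi1 ran from 10.57 through 10.82 to 11.70 in exposed rats, against 9.88 through 10.40 to 10.56 in controls. Exposed and control rats of D28 were thus narrowly separated for Idi1, and for Mvd they overlapped narrowly on both days. Mvd rose by 0.41 (adjusted p = 0.022) and Idi1 by 0.59 (SE 0.13, adjusted p = 0.0079) in the average, and neither passed on a single day. The DEG call of Idi1 in the average rests on the fold limit and was lost without control D0 rat 6 (0.53, adjusted p = 0.012), without exposed D28 rat 4 (0.52, adjusted p = 0.0088) and without 5 other rats in turn. Without exposed D28 rat 4 Mvd passed on D0.

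Sqle, squalene epoxidase, and Lss, which closes squalene epoxide into lanosterol, follow in the pathway. Sqle read 11.33, 11.32, 11.55, 10.75 and 10.88 in the exposed rats of D0 and from 10.01 through 10.87 to 10.99 in controls. On D28 Sqle ran from 10.42 through 10.67 to 11.43 in exposed and from 9.70 through 10.18 to 10.44 in control rats. Lss read 10.58, 10.42, 10.62, 10.54 and 10.15 in the exposed rats of D0 against 9.70 through 10.21 to 10.25, and on D28 from 10.01 through 10.10 to 10.59 against 9.44 through 9.90 to 10.23. Both overlapped on both days. In the average Sqle rose by 0.53 (adjusted p = 0.020) and Lss by 0.32 (adjusted p = 0.044). Lss passed in only 3 of the 23 fits that left out 1 rat, and not without control D0 rat 6 or exposed D28 rat 4.

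Msmo1, which removes methyl groups from lanosterol-derived sterols, passed on both days in the fit of all 23 rats. It read 13.47, 13.14, 13.34, 13.09 and 12.97 in the exposed rats of D0 and from 12.26 through 12.82 to 12.88 in controls, and on D28 from 12.68 through 12.71 to 13.11 in exposed and from 12.13 through 12.32 to 12.61 in control rats. No exposed rat overlapped a control of its day. Msmo1 rose by 0.47 on D0 (SE 0.12, limma adjusted p = 0.037) and by 0.46 on D28 (SE 0.12, adjusted p = 0.049), under the fold limit. Without control D0 rat 6 its D0 difference was 0.37 (adjusted p = 0.077), and without exposed D28 rat 4 its D28 difference was 0.40 (adjusted p = 0.114). It passed in 15 of the 23 fits without 1 rat on D0 and in 5 on D28, and in all 23 in the average.

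Dhcr7, the reductase of the last step to cholesterol, read 9.20, 9.13, 9.21, 8.94 and 8.61 in the exposed rats of D0 and from 7.78 through 8.70 to 8.84 in controls. Its D28 level ran from 8.48 through 8.79 to 9.17 in exposed and from 7.73 through 8.01 to 8.32 in control rats, with no overlap. It rose 1.72-fold on D28 (0.79, SE 0.16, adjusted p = 0.018), a call kept in all 23 fits without 1 rat, and differed by 0.48 on D0 (adjusted p = 0.181). The D28 call was lost when only the D28 arrays were fitted (limma adjusted p = 0.053). In the average it rose by 0.63 (adjusted p = 0.0020), and without control D0 rat 6 by 0.56 (adjusted p = 0.0013), under the fold limit. The other 8 cholesterol genes were Mvk, Pmvk, Fdps, Fdft1, Nsdhl, Hsd17b7, Sc5d and the sterol carrier Stard4. Their differences ran from 0.04 to 0.30 on D0 and from 0.04 to 0.46 on D28, and none passed (lowest adjusted p = 0.116).

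**Figure D3:**
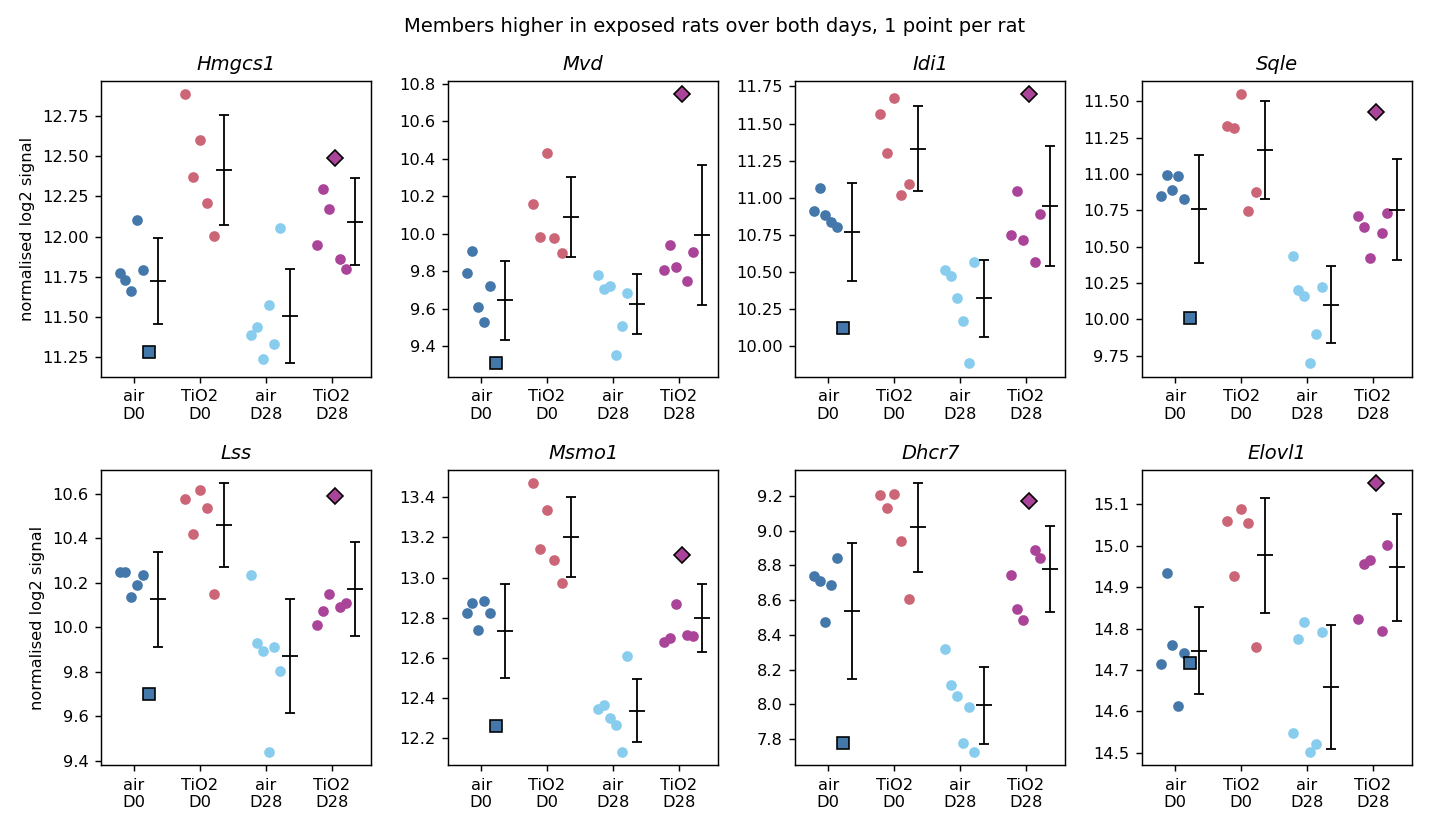
Log2 signal in each rat by group for the cholesterol genes Hmgcs1, Mvd, Idi1, Sqle, Lss, Msmo1 and Dhcr7 and for the elongase Elovl1, with the mean ± SD as a bar; the diamond is exposed D28 rat 4 and the square is control D0 rat 6. The exposed mean is above the control mean of its day in each panel, and the square is the lowest control of D0 in all panels but that of Elovl1.

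Scd and the cholesterol genes moved in opposite directions, and the sequences upstream of their start sites are shown for Scd and for 3 cholesterol genes that passed on a single day. In the RefSeq table of GRCr8, 31 of the 38 genes had a promoter entry, with 32 promoters in all. The motif CCAAT, bound by the factor NF-Y that works with the SREBPs, was searched on both strands in the 250 bases before the start. It was present in 24 of the 32 promoters (75%), in 10 of 11 from cholesterol genes and in 14 of 21 from the others, against 34% of 33469 promoters of all genes. The GC-box core GGGCGG was present in 22 of the 32 (68.8%, all promoters 30.5%), the E-box CACGTG in 4 (12.5%, all promoters 5.59%) and the sterol element TCACNCCAC in 0 (all promoters 0.974%). Each sequence below is the 250 bases before the start, 5′ to 3′ on the strand of the gene, with CCAAT or its reverse complement in capitals.
Hmgcs1, chr2:53382054-53382303, plus strand: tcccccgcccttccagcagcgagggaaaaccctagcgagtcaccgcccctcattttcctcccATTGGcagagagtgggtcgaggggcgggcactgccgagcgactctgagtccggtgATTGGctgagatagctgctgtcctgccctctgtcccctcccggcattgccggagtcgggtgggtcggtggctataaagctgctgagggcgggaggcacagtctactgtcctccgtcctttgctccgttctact
Msmo1, chr16:29746863-29747112, plus strand: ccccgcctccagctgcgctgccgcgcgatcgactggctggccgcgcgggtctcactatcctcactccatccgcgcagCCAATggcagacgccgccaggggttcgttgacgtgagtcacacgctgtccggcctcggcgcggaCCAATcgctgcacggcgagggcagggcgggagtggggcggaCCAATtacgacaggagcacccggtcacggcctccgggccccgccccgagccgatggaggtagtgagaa
Dhcr7, chr1:208444184-208444433, plus strand: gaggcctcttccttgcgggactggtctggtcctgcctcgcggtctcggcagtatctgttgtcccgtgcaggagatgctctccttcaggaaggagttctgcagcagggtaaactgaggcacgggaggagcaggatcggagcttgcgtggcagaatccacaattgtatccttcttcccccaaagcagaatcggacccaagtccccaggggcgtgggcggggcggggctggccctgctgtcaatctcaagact
Scd, chr1:253231732-253231981, minus strand: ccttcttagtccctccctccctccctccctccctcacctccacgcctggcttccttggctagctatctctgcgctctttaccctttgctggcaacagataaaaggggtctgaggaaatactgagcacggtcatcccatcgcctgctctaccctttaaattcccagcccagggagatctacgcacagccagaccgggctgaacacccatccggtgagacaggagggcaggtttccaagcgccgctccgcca
Hmgcs1 held 2 matches and Msmo1 3, and neither Dhcr7 nor Scd held one in this window. A match describes these letters and not the binding of a factor.

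Genes of the same pathways outside the set were read in the same fit. Among other sterol genes, the lanosterol demethylase Cyp51 rose by 0.59 in the average (adjusted p = 0.012), and the lysosomal sterol carrier Npc2 rose 1.70-fold on D0 (0.76, adjusted p = 0.0020). Of the 20 other fatty acid and triglyceride synthesis genes measured, none passed on a single day. In the average Gpam, the first acyltransferase of triglyceride synthesis, rose by 0.32 (adjusted p = 0.022). The elongase Elovl4 was called downward in the average, but it was well above background on 8 of 23 arrays and on none of the exposed D28 rats, so no size is given. None of the 9 surfactant phospholipid synthesis genes passed, and of 6 LXR genes and targets Nr1h3, encoding LXR-alpha, passed upward on D0 (0.27, adjusted p = 0.035).

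Of 19 fatty acid oxidation and PPAR genes, Angptl4 rose on D0 (1.09, adjusted p = 0.024), none passed on D28, and in the average the regulator Ppara fell by 0.31 (adjusted p = 0.038). This list had a median difference of 0.17 on D0 and 0.03 on D28.

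Markers of cell types were read beside these results. Of 9 macrophage markers, Cd68 and C1qb passed upward on D0, Cd68 on D28, and these with Itgax and C1qa in the average. On each day 7 of the 9 were higher and 2 lower in exposed rats. Their summed level ran from 14.05 to 14.26 in controls and from 14.52 to 14.998 in exposed rats at D0, and at D28 from 14.06 to 14.30 and from 14.39 to 14.57, without overlap on either day. Their mean log2 level overlapped on D28, where it ran from 8.63 to 9.09 in controls and from 8.94 to 9.32 in exposed rats. Of 10 type II pneumocyte markers, Sftpd passed upward on D0, none on D28, and Sftpa1, Sftpd and Napsa in the average, and their summed level ran from 18.55 to 18.69 in controls and from 18.76 to 18.98 in exposed rats at D0, and at D28 from 18.49 to 18.77 and 18.65 to 18.92. Both summed levels were thus higher on average in exposed rats. Their part in the results was not tested.

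None of the 12 white adipocyte markers passed in a comparison of exposed with control rats. Their summed level ran from 12.60 to 13.24 in D0 controls, 12.77 to 13.04 in D0 exposed rats, 12.62 to 13.26 in D28 controls and 12.69 to 13.24 in D28 exposed rats. Cfd weighs most in this sum, which therefore says little of the dimmer markers. In control D0 rat 6 Cfd read 12.93 and the sum 13.24. In exposed D28 rat 4 Cfd read 12.69 and the sum 12.91. The mean log2 level of the 12 also overlapped on both days. Plin1, the coat protein of fat droplets in adipocytes, was not well above background on any array, and Adipoq was well above background on 15 of 23. Of the 4 brown adipocyte markers measured, Cox8b fell by 0.79 on D0 (adjusted p = 0.0044) and by 0.64 in the average (adjusted p = 0.0005), while Ucp1 was well above background on 12 of 23 arrays. The summed level of the 4 ran from 10.61 to 11.24 in control and 10.13 to 10.59 in exposed rats at D0, and at D28 from 10.85 to 11.19 and 10.38 to 10.80, without overlap. Cox8b had the highest signal of the 4 and weighs most in this sum. The mean log2 level of the 4 overlapped on both days. It ran from 6.97 to 7.30 in control and 6.54 to 7.02 in exposed rats at D0, and at D28 from 6.82 to 7.40 and 6.75 to 7.15. Which cells of the lobe gave the Cox8b signal was not measured, and its part in the Scd result was not tested. Of 8 neutrophil markers, none passed on a single day and Ngp passed downward in the average. Their summed level overlapped between groups on both days. At D0 it ran from 14.09 to 15.65 in controls (mean 14.57) and from 13.61 to 15.63 in exposed rats (mean 15.15). At D28 it ran from 13.85 to 15.11 (mean 14.41) and from 14.49 to 15.90 (mean 14.95). The sum was thus higher on average in exposed rats, while 6 of the 8 genes were lower on each day.

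The control rats themselves differed between the days. Srebf1 was the only DEG of the set in controls of D28 against controls of D0 (0.607% of all genes called, 0.872% by the adjusted p alone). It fell 1.63-fold (-0.70, SE 0.15, adjusted p = 0.025), from 10.38 ± 0.27 to 9.68 ± 0.30 (SD, n = 6 each). The call was lost without any of control D0 rats 1 to 5 or control D28 rats 2, 4 and 6. Of the 38 genes, 32 were lower in D28 controls, where 11785 of all 23056 genes were. Among the 32 were all 15 cholesterol genes, with a median of -0.38. Without control D0 rat 6, the lowest of its group for 12 of the 15 cholesterol genes, 5 genes were called in this comparison, namely Fads1, Acss2, Srebf1, Sqle and Dhcr7. The share of all genes given above, 0.607%, is that of the fit with every rat and not of this fit. No share is given for this fit, so the 5 calls cannot be read as particular to the set.

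Genes of the circadian clock also differed between the controls of the days. The 9 clock genes that peak with Nr1d1 had a mean level of 8.96 ± 0.12 in D0 controls, 8.08 ± 0.38 in D0 exposed, 7.16 ± 0.12 in D28 controls and 8.21 ± 0.54 in D28 exposed rats. The 5 that peak with Arntl had levels of 7.00 ± 0.16, 7.24 ± 0.13, 8.26 ± 0.22 and 7.50 ± 0.24 in the same order. Nr1d1, a clock repressor that also acts on lipid genes, fell by 2.50 on D0 (adjusted p = 0.0006) and rose by 2.00 on D28 (adjusted p = 0.0062), and its effects on the 2 days differed by 4.49 (adjusted p = 0.0002). Nr1d1 thus differed in opposite directions on the 2 days. Time of death was not given in the sources used here, and its part in the results was not tested.

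**Figure D4:**
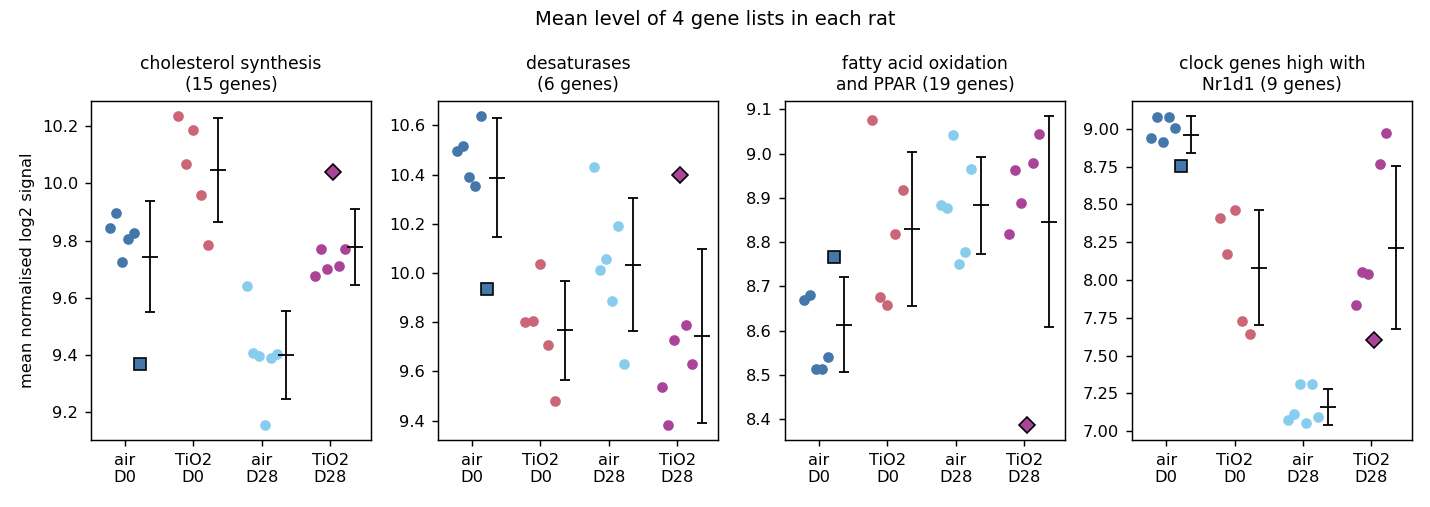
Mean log2 level of 4 gene lists in each rat, by group: cholesterol synthesis (15 genes), desaturases (6), fatty acid oxidation and PPAR (19) and clock genes that peak with Nr1d1 (9), with the mean ± SD over rats as a bar. The cholesterol means are 9.74 and 10.05 on D0 and 9.40 and 9.78 on D28, and the clock means are 8.96 and 8.08 on D0 and 7.16 and 8.21 on D28, control first.

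The effect of exposure was also compared between the days. No gene of the set was called in the difference of the D28 and D0 effects, where 0.0304% of all genes were called. The differences ran from -0.72 to 0.74, with a lowest adjusted p of 0.999948, and at an unadjusted p under 0.05 limma found 1 of the 38 genes (Srebf1, 0.49) and 792 of all genes. The lowest difference, -0.72, was that of Elovl6, whose gene level includes a probe near background. The Scd effect was 0.74 weaker on D28 than on D0, a value that did not pass.

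The slides allowed a comparison within each. Scd differed by -2.73, -2.28, -2.33 and -0.81 on the 4 slides that held both D0 groups and by -0.59, -2.12 and -0.73 on the 3 that held both D28 groups, and was lower in exposed rats on all of them. Exposed D28 rat 4 was on the slide with -0.59, and control D0 rat 6 was the only D0 control on the slide with -0.81, the last of the 4 D0 slides in each list here. Hmgcs1 differed by 1.15, 0.42, 0.30 and 1.32 on D0 and by 0.80, 0.65 and 0.24 on D28. Msmo1 differed by 0.60, 0.27, 0.25 and 1.07, and by 0.58, 0.55 and 0.09. Dhcr7 differed by 0.49, 0.15, 0.29 and 1.43, and by 0.93, 0.53 and 0.82. For these 4 genes the sign was the same on every slide, and the sizes varied, each slide holding 1 or 2 rats of a group. Among the other genes that passed, Sqle differed by -0.09 on 1 slide of D0 and Scd4 by 0.20 on the D28 slide of exposed rat 4. Scd2 differed by 0.70 on the slide of control D0 rat 6.

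The values by rat show how the set varied within groups. In exposed D28 rat 4, Scd stood at 14.51 against a median of 12.27 in the 5 others, Scd2 at 12.30 against 11.14 and Fasn at 15.10 against 14.33, and 10 of the 15 cholesterol genes were above all others. In the same rat, 14 of the 19 fatty acid oxidation and PPAR genes were below all other rats of the group. Among them Cpt1a, the carnitine palmitoyltransferase that admits chains to mitochondria, read 8.14 against 9.31 and the thioesterase Acot1 3.88 against 6.76. Fads3, Insig2, Sc5d, Stard4 and Thrsp were below all others in this rat, and of the 20 other fatty acid and triglyceride synthesis genes 4 were above and 5 below all others. In control D0 rat 6, 12 of the 15 cholesterol genes and 5 of the 6 desaturases were below all others, and 9 of the 19 oxidation genes were above all others. That rat also had 5 of 8 neutrophil markers above all others. With both rats left out, an alternative chosen after seeing the data, Scd remained a DEG on D0, Scd, Scd4 and Dhcr7 were DEGs on D28, and Scd and Scd4 in the average. The shares of all genes called in that fit are not given.

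**Figure D5:**
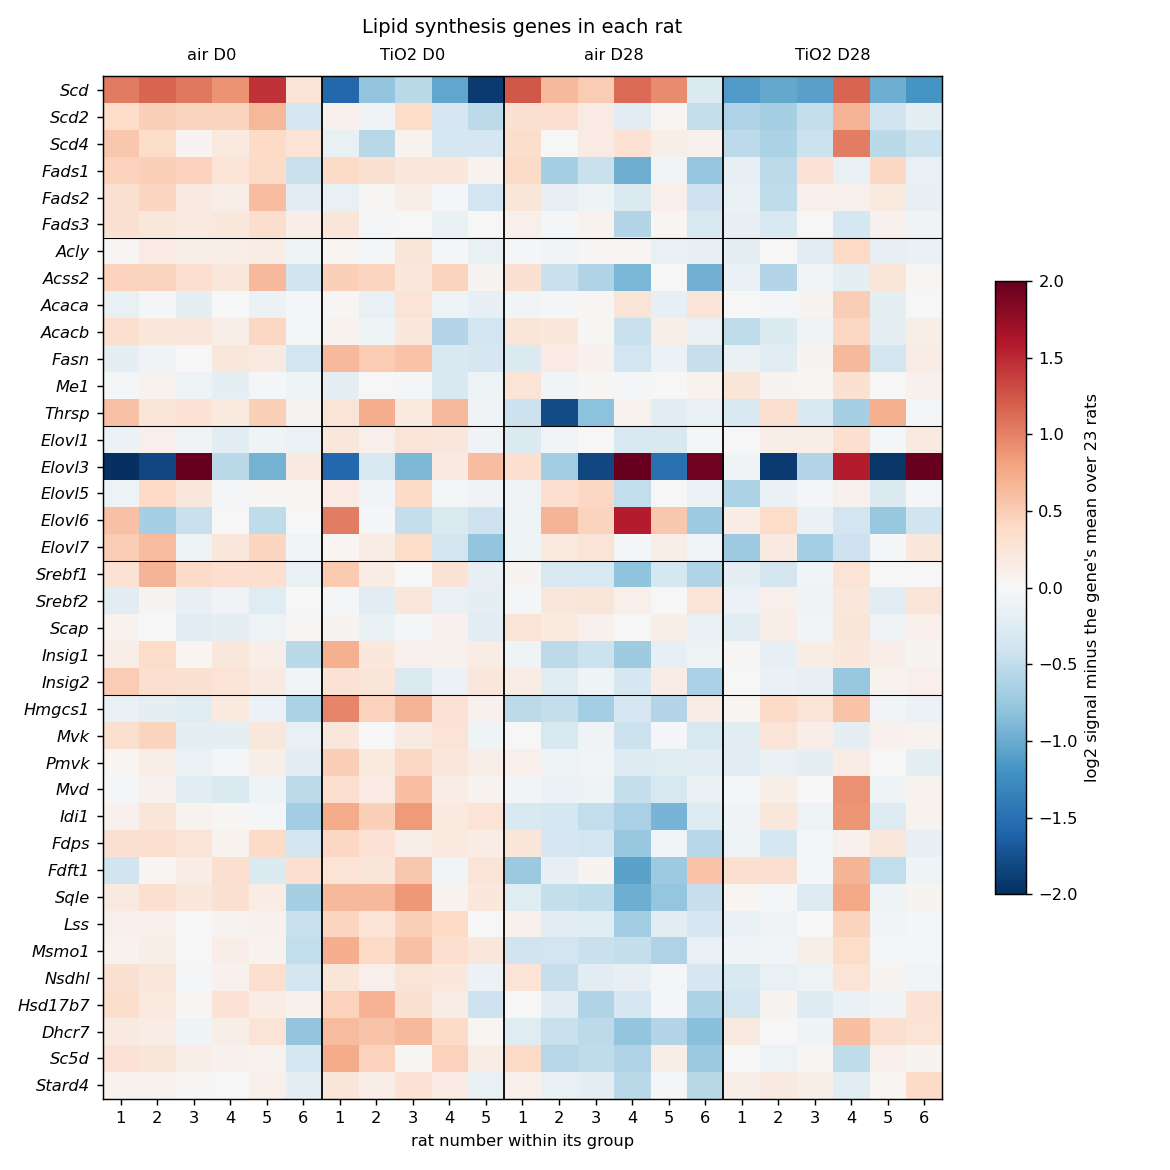
Log2 signal of the 38 genes (rows, by role) in the 23 rats (columns, by group), each gene shown as its difference from its own mean over all rats. Scd is low in all exposed rats except rat 4 of D28 (14.51), and the cholesterol rows of control D0 rat 6 are low, with 12 of 15 below all other controls of that day.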

How the data were processed

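RNA of 23 lung lobes, 1 rat each, had been hybridised to 1-colour Agilent arrays. The authors extracted spot intensities with Agilent Feature Extraction (11.0.1.1 in the submitters' processing notes; the file header of 1 array reads 12.0.1.1), and the deposited intensity used here is the background-subtracted processed signal. The authors' deposited log2 value table of the same arrays served as an alternative. Groups came from titles and descriptions, since the source field of the exposed D28 arrays repeats the D0 wording. The 75th percentile of the signal ran from 1383 to 3470, and 69.5% to 77.9% of probes were well above background. The number of arrays limits the precision.

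Signals were log2-transformed, with each array quantile-normalised. A probe had to exceed the 95th percentile of the 308 negative controls in 5 arrays or more (40418 of 45598 did), and spots of a probe and probes of a gene were averaged. For the set, 57 of 58 probes were kept; 21 genes had 1 probe and 17 had 2 or 3. limma 3.58.1 in R 4.3.3 fitted 1 mean per group (19 residual degrees of freedom) with Benjamini-Hochberg adjustment; the fit was tested on simulated data. No list was tested. The members and gene lists were chosen with earlier results of these data known. Values per rat are given for Scd, Scd2, Scd4, genes called, passing or not overlapping in any comparison, and Acaca, Fasn, Hmgcs1, Sqle, Srebf1, Srebf2 and Insig1; other members by range. Genes outside the set that passed the adjusted p alone were named after their values were seen. Separate rats are assumed from the labels. Same-numbered rats of 2 groups did not deviate together on D0 (correlations from -0.23 to -0.12 over 5 pairs). On D28 the correlations ran from -0.17 to 0.46 over 6 pairs. They were 0.36, 0.26 and 0.46 for rats 2, 4 and 5, and of these only the pair numbered 5 shared a slide. Alternatives covered normexp background correction, scaling, the probe filter, the choice of probe, slide and replicate blocks, the samples fitted, variance models, the fold limit and each rat left out. Gene coordinates of probes are those of the array files (rn4). Some genes of the sterol and oxidation lists are not reported here.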

Additional observations from a re-analysis of the deposited data

Results flagged for a closer look

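Each of the 38 genes was tested in each group of rats, 152 combinations in all. Of these, 21 held a highest or lowest rat far from its nearest neighbour. For a single combination chance gives about 1 in 20. The genes were read in the same rats, so the 152 are not independent and the 21 cannot be set against that rate. Exposed D28 rat 4 was the highest of its group for Scd (14.51, next 12.37), Scd2 (12.30, next 11.43), Scd4 (7.64, next 6.19), Acly (13.87, next 13.47), Acaca (8.64, next 8.19), Mvd (10.74, next 9.94), Sqle (11.43, next 10.73) and Lss (10.59, next 10.15), and the lowest for Insig2 (6.45, next 7.04) and Sc5d (7.01, next 7.40). Control D0 rat 6 was the lowest of its group for Scd2 (11.29, next 11.99), Fads1 (9.25, next 9.97), Insig1 (11.48, next 12.06), Idi1 (10.12, next 10.80), Sqle (10.01, next 10.83), Lss (9.70, next 10.14), Msmo1 (12.26, next 12.74), Dhcr7 (7.78, next 8.48) and Sc5d (7.16, next 7.59). These 2 rats account for 19 of the 21. The other two were control D0 rat 3, the highest for Elovl3 (7.70, next 3.77), and exposed D0 rat 1, the highest for Insig1 (12.73, next 12.23). All values are log2 signals.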

How the results depend on the processing

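The fall of Scd on D0 kept its direction and passed in all 23 fits without 1 rat (-2.31 to -1.96), and on D28 it passed in 2 of 23 (-1.78 to -1.30, adjusted p from 0.0015 to 0.129). On D28 Scd also passed under 75th percentile scaling, normexp, the deposited table, well-above-background probes, the replicate block, the intensity trend and array weights. It did not pass without the probe filter, with the highest-mean probe, with the slide block or with only the arrays compared. No tested result named here changed direction, but the cholesterol genes higher in exposed rats, 15 of 15 on both days, ran from 12 (without control D0 rat 6) to 15 on D0 and from 14 to 15 on D28 over the alternatives. Counts moved as follows. With normexp, the genes called were 220 on D0, 94 on D28, 144 in the average and 14 in the difference between days (main 411, 174, 430 and 7), and the members called were 2 on D28 and 2 in the average. With only the arrays compared, 41 genes and 0 members were called on D28, 1 member on D0 and 0 in control D28 against control D0; this setting has no value for the average or the difference between days. The deposited table gave 190 genes in the average, 2 members on D28 and 2 in the average. Without the fold limit the genes called were 656 on D0, 303 on D28 and 1509 in the average, and the members 2 on D28 and 10 in the average. The difference between days held 13 genes with probes well above background and 12 with the intensity trend. Members on D28 were 2 also under 75th percentile scaling, well-above-background probes, the intensity trend and array weights. In controls, D28 against D0, members called were 0 with the highest-mean probe and with each probe apart, 2 with the slide block and 3 with array weights. With the replicate block, members called were 1 on D0 and 2 on D28, and genes called 356 on D0, 138 on D28, 409 in the average, 123 in controls and 5 in the difference between days. The labels do not say that the numbers pair the rats. Leaving out exposed D28 rat 4 and control D0 rat 6 together, chosen after seeing the data, gave 1 member on D0, 3 on D28, 2 in the average, 5 in controls and 14 genes in the difference between days. The shares of all genes are not given beside these member counts, which cannot be read as particular to the set. Without 1 rat at a time, genes called ran from 315 to 439 on D0, 111 to 203 on D28, 87 to 198 in controls, 6 to 11 in the difference between days and 390 to 437 in the average, and members called from 1 to 2, 1 to 3, 0 to 5, 0 to 0 and 2 to 4. The cause of these moves was not tested.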
